A study of Arabidopsis thaliana with 4 samples.

Results

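The genes described here are those of the Arabidopsis thaliana mitochondrial genome, taken as every array entry whose locus code starts with ATMG. There were 107 such loci among the 32627 genes of the array, and each had a single entry among the 37118 transcript models. Total RNA came from whole seedlings of late-flowering 35S::JMJ30-HA transgenic plants and of the Columbia wild type, with 2 one-colour NimbleGen arrays (Cy3) per genotype. The transgene puts JMJ30, a nuclear gene for a histone demethylase, with an HA tag under the near-ubiquitous 35S promoter, which comes from a plant virus, and the labels do not say whether 1 or several transformed lines were used. Both genotypes have the Col-0 background, were grown on soil at 22 °C with 16 h of light and 8 h of dark, received no treatment and were collected 13 days after germination, and the hour of collection is not given. Arrays with the same replicate number are called a set, because the series' design text names independent sets that hold both genotypes, without saying what the plants of a set shared.

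Plant mitochondria keep a small genome of bacterial descent. It encodes some of the subunits of the respiratory chain and of the ATP synthase, proteins that attach haem to c-type cytochromes, a part of the mitochondrial ribosome, ribosomal and transfer RNAs, and many open reading frames without a known product. The other mitochondrial proteins, among them the RNA polymerases and the factors that splice, edit and degrade mitochondrial transcripts, are encoded in the nucleus. The reference gene table (TAIR10.1) lists 33 protein-coding entries on the mitochondrial genome, with 9 nad genes (complex I), 1 cob gene (complex III), 3 cox genes (complex IV), 5 atp genes (ATP synthase), 5 ccm genes (cytochrome c maturation), 7 genes of ribosomal proteins, matR and mttB, and it lists 3 ribosomal RNAs. None of the ATMG codes of the array could be matched to these entries, so the loci are given by their codes, and no role is assigned to any of them.

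Median intensities over all genes lay between 23.5 and 24.6 on the 4 arrays. The distribution of mean log2 values over all genes was bimodal, with peaks near 4.35 and 189 in intensity. The lowest point between them, at 14.3 and called the valley below, marks dim signal and is no detection call. JMJ30 itself, at 1054 and 721 in 35S::JMJ30-HA seedlings and 705 and 567 in the wild type, had a log2 difference of 0.46 ± 0.27 (SE, limma, adjusted p = 1). JMJ30 was higher in 35S::JMJ30-HA seedlings in both sets, by 0.58 in set 1 and 0.35 in set 2, and the genotypes did not overlap. The leaf marker RBCS1A, a small subunit of Rubisco, lay between 1562 and 1601, while all 4 root markers and all 3 seed markers stayed under the valley on every array. All 4 leaf markers were higher in set 2 in both genotypes (32.3% of all genes). Their log2 set differences ran from 0.01 at RBCS1A to 0.75 at LHCB2.1, a light-harvesting protein. By genotype all 4 had a lower mean log2 value in 35S::JMJ30-HA seedlings (49.2% of all genes were higher), from -0.02 at RBCS1A to -0.36 at LHCA1. The part of these markers in the differences below was not tested.

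Signal at the mitochondrial loci ranged widely. The level of a locus, its geometric mean over the 4 arrays, lay between 5.95 and 721 with a median of 31.6, and 76 of the 107 loci (71.0%) were above the valley, against 54.3% of the 32297 other nuclear genes. By band of level, 31 loci were under the valley, 38 lay between it and 50, 26 lay between 50 and 150, and 12 were above 150. Intensities of different loci also depend on their probes, whose number and sequences are unknown here, so the order of brightness is not an order of transcript amount.

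**Figure D1:**
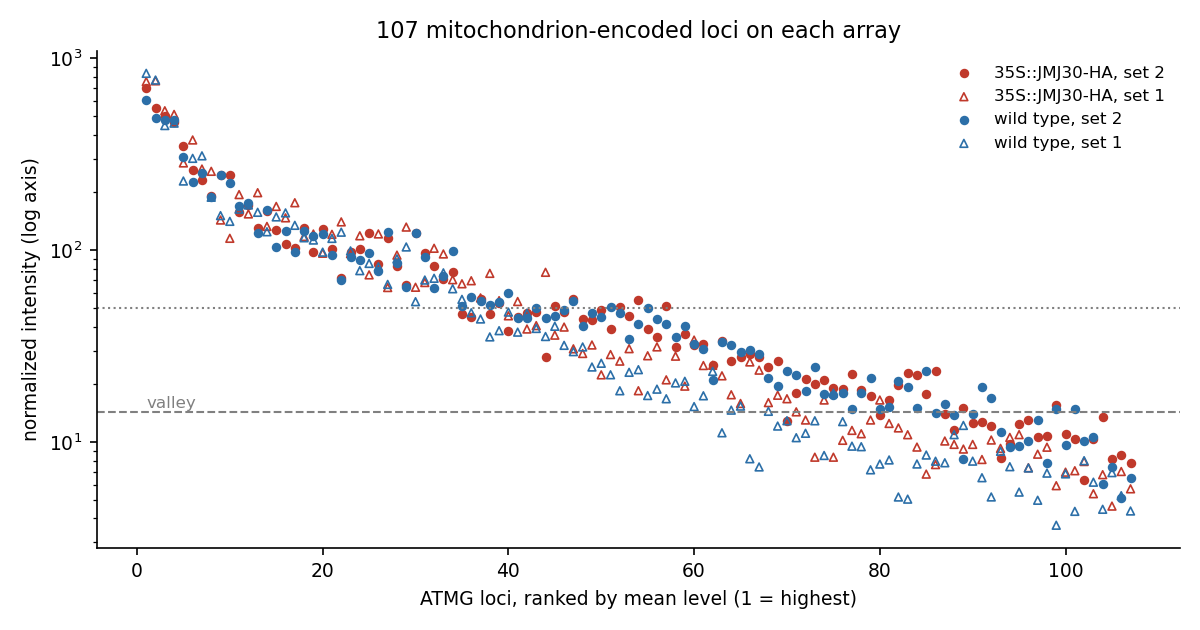
Intensity (log axis) of the 107 mitochondrial loci on the 4 arrays, ranked by level from bright to dim, with the valley of 14.3 as a dashed line and an intensity of 50 as a dotted line. At the bright end neither set is the higher throughout, and some loci, ATMG01390 and ATMG00830 among them, have the sets well apart. At the dim end both arrays of set 1 tend to lie under those of set 2.

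ATMG00020 was the brightest locus, with 757 and 705 in 35S::JMJ30-HA seedlings and 835 and 607 in the wild type. ATMG01390 followed with 764 and 551 in 35S::JMJ30-HA seedlings and 771 and 490 in the wild type. At both loci the genotypes overlapped, and the first replicate of each genotype was the brighter. ATMG00370 had 533 and 498 in 35S::JMJ30-HA seedlings against 446 and 478 in the wild type, and ATMG00280 had 510 and 465 against 460 and 478. ATMG00660 had 285 and 348 in 35S::JMJ30-HA seedlings against 229 and 307 in the wild type, and ATMG00030 had 376 and 260 against 301 and 227. Of these 6 loci, ATMG00370 alone had no overlap between genotypes, with the transgenic line higher, and its log2 difference of 0.16 ± 0.18 (SE) was smaller than its error.

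The comparison of genotypes asks whether any transcript level differed in the plants that carry the JMJ30 transgene. No mitochondrial locus was called at an adjusted p below 0.05 (limma, Benjamini-Hochberg over all 32627 genes), and 0% of all genes were called. The median log2 difference of the 107 loci, 35S::JMJ30-HA minus wild type, was 0.13, against -0.0039 over all genes. It was positive at 79 loci (73.8%) and negative at 28, and 49.2% of all genes were positive. At an unadjusted p below 0.05, 1 locus of the 107 passed, on the higher side (2.99% of all genes passed, 1.4% higher and 1.58% lower), and with the replicate number as a block 6 passed (6.01% of all genes), the smallest adjusted p being 0.825. The loci are not independent replicates, since they share arrays and extracts, so these counts describe the group and test nothing.

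The offset between genotypes was not alike in both sets. Its median over the mitochondrial loci was 0.04 in set 2 and 0.27 in set 1, with 58 loci higher in 35S::JMJ30-HA seedlings in set 2 and 78 in set 1. In both sets 41 loci (38.3%) were higher (24.7% of all genes were), 12 were lower in both (25.5% of all genes), and 54 changed sign between sets. The genotypes did not overlap at 13 loci with 35S::JMJ30-HA seedlings higher (12.7% of all genes) and at 3 with them lower (13.3% of all genes). Each array bore on the median, which was 0.29 without the first and 0.0095 without the second 35S::JMJ30-HA replicate, and -0.12 without the first and 0.37 without the second wild-type replicate. This fit has no set term, so with 1 array left out part of the set difference given below enters these medians. Loci up to an intensity of 50 had a median of 0.18 and loci above it 0.08, a split chosen after the values were seen. With 1 array left out, the median ranged from -0.28 to 0.56 in the dimmer loci and from 0.0071 to 0.16 in the brighter ones.

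**Figure D2:**
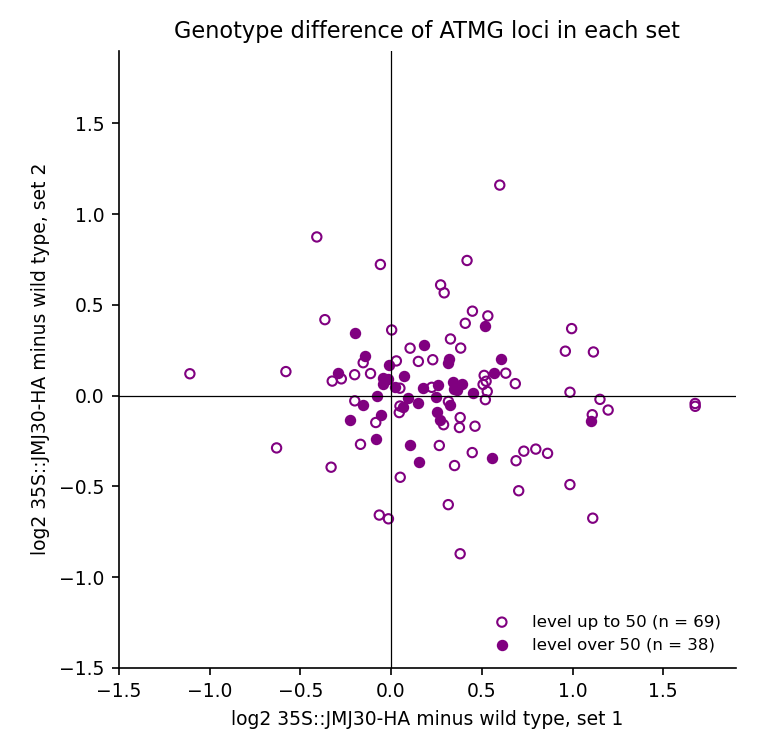
Log2 genotype difference (35S::JMJ30-HA minus wild type) of the 107 mitochondrial loci in set 1 (x axis) and set 2 (y axis), with open points for loci up to an intensity of 50 and filled points for brighter loci. The points spread to the right of 0 along the set 1 axis, where 78 loci were positive, and scatter around 0 along the set 2 axis, where 58 were.

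ATMG00470 was the locus that passed at an unadjusted p. It had 7.03 and 8.57 in 35S::JMJ30-HA seedlings against 5.26 and 5.12 in the wild type, a log2 difference of 0.58 ± 0.20 (SE, limma, unadjusted p = 0.0328, adjusted p = 1). All of its values lay under the valley. With the replicate block it was joined by ATMG00040, ATMG00200, ATMG00690, ATMG00750 and ATMG01220, all higher in 35S::JMJ30-HA seedlings.

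The highest log2 genotype difference was that of ATMG00750, which had 6.76 and 13.5 in 35S::JMJ30-HA seedlings against 4.47 and 6.04 in the wild type (0.88 ± 0.38, SE). ATMG00690 had 10.9 and 12.4 in 35S::JMJ30-HA seedlings against 5.49 and 9.60 in the wild type (0.68 ± 0.31). Both of these dim loci had no overlap between genotypes. ATMG01260 had 23.7 and 27.8 in 35S::JMJ30-HA seedlings against 7.42 and 28.6 in the wild type, and ATMG01030 had 26.2 and 28.9 against 8.19 and 30.1. Their differences of 0.82 ± 0.64 and 0.81 ± 0.61 came from 1 low array, the first wild-type replicate, and the genotypes overlapped. ATMG00240 had 10.9 and 22.9 in 35S::JMJ30-HA seedlings against 5.04 and 19.4 in the wild type (0.68 ± 0.72), where the replicates of a genotype lay farther apart than the genotypes. Its genotype difference was 1.12 in set 1 and 0.24 in set 2. The errors here come from the fit without a set term, so differences between sets enter them.

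At the other end stood ATMG01410, with 8.34 and 19.2 in 35S::JMJ30-HA seedlings against 18.0 and 17.7 in the wild type, a log2 difference of -0.49 ± 0.42 (SE). ATMG00140 had 8.34 and 20.1 in 35S::JMJ30-HA seedlings against 12.9 and 24.5 in the wild type (-0.46 ± 0.52), and ATMG00850 had 6.81 and 17.8 against 8.56 and 23.4 (-0.36 ± 0.65). In these 3 loci the genotypes overlapped. ATMG01330 had 45.5 and 37.7 in 35S::JMJ30-HA seedlings against 47.6 and 59.5 in the wild type (-0.36 ± 0.22), and ATMG00700 had 7.92 and 6.34 against 8.00 and 10.1 (-0.35 ± 0.23). These last loci did not overlap, although the nearest arrays of the genotypes were almost equal. None of the 10 loci at the ends of the range had an adjusted p below 1.

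Among loci brighter than 50, 6 had both 35S::JMJ30-HA arrays above both wild-type arrays, and 1 had them below. These are 15.8% and 2.63% of the 38 loci, against 10.2% and 9.99% of other nuclear genes brighter than 50. They are named because they are few and were chosen after their values were seen. ATMG00200 had 102 and 83.0 in 35S::JMJ30-HA seedlings against 71.4 and 63.6 in the wild type (0.45 ± 0.21, SE). ATMG01130 had 119 and 102 against 78.3 and 88.6 (0.40 ± 0.20), again with the transgenic line first. The other higher loci, ATMG00990, ATMG01360, ATMG00285 and ATMG00370, had log2 differences from 0.16 to 0.35. ATMG00220 was the lower one, at 155 and 171 in 35S::JMJ30-HA seedlings against 172 and 177 in the wild type (-0.10 ± 0.19).

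By its median, the difference between replicate numbers was larger than that between genotypes, and the contrast of these medians was not tested. The median log2 difference of set 2 minus set 1, fitted with genotype as a term, was 0.48 over the 107 loci, against 0.0091 over all genes. It was 0.29 within 35S::JMJ30-HA seedlings and 0.50 within the wild type. It was positive at 80 loci and negative at 27. In 62 loci both arrays of set 2 lay above both arrays of set 1 (25.5% of all genes), and in 14 they lay below (23.2% of all genes). Within each genotype taken alone, 66 loci were higher in set 2 in both (32.3% of all genes), 16 were lower in both (30.1% of all genes) and 25 were mixed.

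No mitochondrial locus passed an adjusted p of 0.05 in this comparison (limma, 1 residual degree of freedom per gene before moderation), the smallest adjusted p being 0.1015, and 4 genes of the array did (0.0123%). At an unadjusted p below 0.05, 47 loci were higher in set 2 (8.35% of all genes) and 7 were lower (7.11% of all genes). The number of calls depended on how the spread was modelled. With a spread that follows intensity and is robust to outlying genes, 40 of the 107 loci (37.4%) were called, 32 higher and 8 lower, against 10.9% of all genes. With dim genes left out, 26 of 76 loci (34.2%) were called against 10.2% of all genes above the valley, and with log2(intensity + 16) 21 loci (19.6%) were called against 5.68% of all genes. These 3 are the alternatives that gave mitochondrial calls. With array medians made equal, quantile normalization, the mean of models or no genotype term, 0 mitochondrial loci were called. Of the 76 loci tested in all 3 alternatives with such calls, 16 (21.1%) were called in each. Among them 12 were higher and 4 lower in set 2, against 8.26% of all genes so tested that were called in each. Such calls were not particular to the mitochondrial loci, and those of other gene groups are given below.

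The set difference varied with brightness. Among the 69 loci up to 50, the median was 0.69 and 66 were higher in set 2, and set 2 lay wholly above set 1 at 51 of them (73.9%) and wholly below at 0. Of other nuclear genes up to 50, 21.6% lay wholly above and 20.2% wholly below, and most of these genes were under the valley. Between the valley and 50, 76.3% of mitochondrial loci lay wholly above and 0% wholly below, against 31.3% and 26.7% of other nuclear genes. Under the valley the shares were 71.0% and 0% of mitochondrial loci, against 19.0% and 18.5% of other nuclear genes. Among the 38 loci above 50 the median was -0.12, with 14 higher and 24 lower, and this value was not stable, at -0.21 within 35S::JMJ30-HA seedlings and 0.04 within the wild type. Set 2 lay wholly above set 1 at 11 of the brighter loci (28.9%) and wholly below at 14 (36.8%), against 30.4% and 27.4% of other nuclear genes over 50. From dim to bright, the medians of the 4 bands were 0.72, 0.68, -0.13 and -0.08. The sign in the bright bands differed between genotypes, at -0.27 in 35S::JMJ30-HA and 0.0012 in wild-type seedlings between 50 and 150, and at -0.12 in 35S::JMJ30-HA and 0.04 in wild-type seedlings above 150. In other nuclear genes of the same bands the medians were -0.00090, 0.03, 0.02 and 0.0062. Mean log2 level and set difference had a Pearson's r of -0.57 across the 107 loci, a description over loci that share their arrays and extracts.

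**Figure D3:**
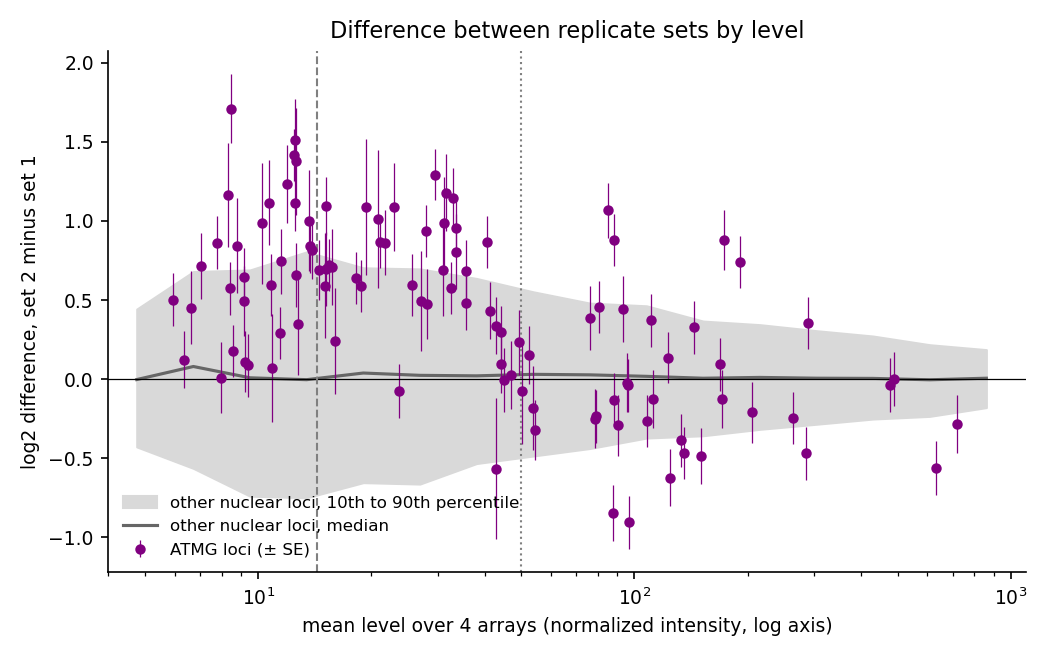
Log2 set difference (set 2 minus set 1, ± SE) of each mitochondrial locus against its level (intensity, log axis), with the median and the 10th to 90th percentile band of the other nuclear genes. Loci up to 50 lie almost all above 0, with a median of 0.69, and brighter loci fall on both sides of 0, with a median of -0.12 that was -0.21 in 35S::JMJ30-HA and 0.04 in wild-type seedlings.

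The first wild-type replicate was the lowest of the 4 arrays at 47 of the 69 loci up to 50, and the first 35S::JMJ30-HA replicate at 14. Within 35S::JMJ30-HA seedlings alone, where no wild-type array enters, the median set difference of these 69 loci was 0.47, and within the wild type it was 0.82. Among the 38 brighter loci the lowest array was spread more evenly, the first wild-type replicate at 11 and the second at 12, and the first 35S::JMJ30-HA replicate was the highest at 21. Counted per array, 86 loci were above the valley in the second and 73 in the first 35S::JMJ30-HA replicate, against 90 in the second and 66 in the first wild-type replicate. In whole seedlings, fewer cells or mitochondria of a kind and less RNA in each cannot be told apart. Whether growth conditions, extraction, labelling or hybridisation differed between the sets is not given in the labels, and their part in the difference was not tested.

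The highest set difference was that of ATMG00550. It had 15.6 in 35S::JMJ30-HA and 14.9 in wild-type seedlings of set 2, against 5.93 in 35S::JMJ30-HA and 3.69 in wild-type seedlings of set 1, a log2 difference of 1.71 ± 0.22 (SE, limma, adjusted p = 0.117). It lay just above the valley in set 2 and under it in set 1, in both genotypes. ATMG00240, at 22.9 and 19.4 in set 2 against 10.9 and 5.04 in set 1, transgenic line first in each, differed by 1.51 ± 0.26. ATMG00850, at 17.8 and 23.4 in set 2 against 6.81 and 8.56 in set 1, differed by 1.42 ± 0.16 and had the smallest adjusted p of the group. The difference at ATMG00850 was nearly equal in the genotypes, at 1.39 in 35S::JMJ30-HA and 1.45 in wild-type seedlings. ATMG00710 had 19.8 and 20.9 in set 2 against 11.9 and 5.17 in set 1 (1.38 ± 0.34), and ATMG01070 had 51.4 and 41.4 in set 2 against 21.1 and 16.8 in set 1 (1.29 ± 0.16). None of these 5 loci overlapped between sets.

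Loci lower in set 2 were led by ATMG00513, with 71.6 in 35S::JMJ30-HA and 69.6 in wild-type seedlings of set 2 against 141 in 35S::JMJ30-HA and 124 in wild-type seedlings of set 1 (log2 difference -0.90 ± 0.17, SE). ATMG00640 had 66.1 and 64.4 in set 2 against 132 and 104 in set 1 (-0.84 ± 0.18), transgenic line first. ATMG00210 had 103 and 98.0 in set 2 against 177 and 135 in set 1 (-0.62 ± 0.18). All 3 kept the order of sets in both genotypes, with no overlap. ATMG01390, the second brightest locus, had 551 and 490 in set 2 against 764 and 771 in set 1 (-0.56 ± 0.17). ATMG00290 had 27.9 and 44.6 in set 2 against 76.7 and 35.5 in set 1, so its difference of -0.56 ± 0.45 came from the transgenic line, at -1.46, and was 0.33 in the wild type. With ATMG00560 (-0.0062) and ATMG00650 (-0.08), ATMG00290 made up the 3 loci up to 50 that were lower in set 2.

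Brightness alone did not fix the direction. ATMG00630 had 123 in 35S::JMJ30-HA and 123 in wild-type seedlings of set 2 against 64.1 in 35S::JMJ30-HA and 53.9 in wild-type seedlings of set 1 (log2 difference 1.07 ± 0.17, SE). ATMG00830 had 246 and 225 in set 2 against 115 and 141 in set 1 (0.88 ± 0.19), and ATMG00840 had 116 and 124 against 63.9 and 66.4 (0.88 ± 0.16), transgenic line first in each. ATMG00580 had 246 in 35S::JMJ30-HA and 247 in wild-type seedlings of set 2 against 144 in 35S::JMJ30-HA and 152 in wild-type seedlings of set 1 (0.74 ± 0.16). These 4 bright loci, chosen after their values were seen, had set differences as large as those of many dim loci. All 4 are among the 16 loci called under each of the 3 alternatives that gave mitochondrial calls. On the higher side these 16 also hold ATMG00140, ATMG00860, ATMG00880, ATMG00890, ATMG01070, ATMG01090, ATMG01110 and ATMG01180. The 4 lower ones were ATMG00210, ATMG00513, ATMG00640 and ATMG01390.

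In the order of the locus codes, loci of the same direction formed runs of differing length. With 80 of the 107 loci higher in set 2, long runs can arise in any order. Whether these runs were longer than in a random order was not tested. From ATMG00660 to ATMG00970, 26 consecutive loci were higher in set 2, with a median log2 difference of 0.78. Further runs of loci higher in set 2 held 9 loci from ATMG00100 to ATMG00180 (median 0.48), 9 from ATMG00310 to ATMG00470 (median 0.49) and 7 from ATMG01030 to ATMG01110 (median 1.01). The longest run of loci lower in set 2 held 4, from ATMG00490 to ATMG00513 (median -0.21). The codes give an order and no distance, and positions and strands of the loci were not used here. Neither shared transcripts nor shared probes of neighbouring loci were tested.

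**Figure D4:**
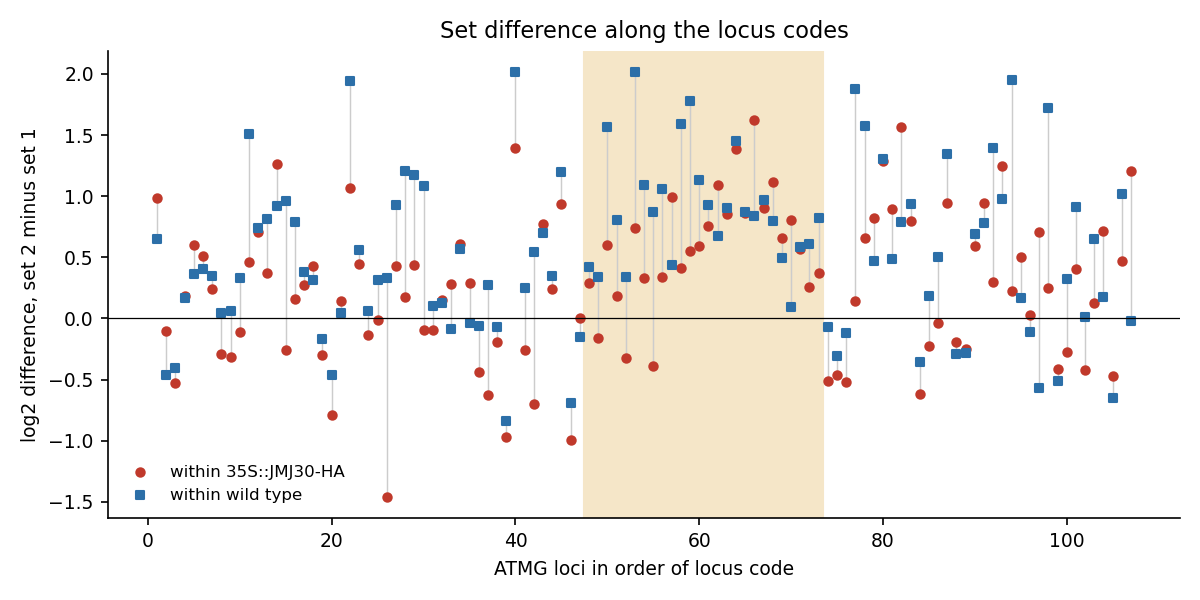
Log2 set difference (set 2 minus set 1) of the 107 mitochondrial loci within 35S::JMJ30-HA seedlings and within the wild type, along the order of the locus codes. The shaded stretch holds the 26 consecutive loci whose mean difference over both genotypes was above 0 (median 0.78).

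The nuclear genome of Columbia carries a large insertion of mitochondrial DNA near the centromere of chromosome 2, so probes for a mitochondrial locus can also match nuclear sequence. The 136 array genes with codes from AT2G076 to AT2G078, a block that covers this neighbourhood and also ordinary nuclear genes, had a median log2 set difference of 0.42, against 0.48 at the mitochondrial loci. In the block 108 genes were higher in set 2, and set 2 lay wholly above set 1 at 73 (25.5% of all genes) and wholly below at 11 (23.2% of all genes). Band by band from dim to bright, the medians of the block were 0.30, 0.82, 0.24 and -0.11. With the spread that follows intensity, 48 of the 136 block genes were called for replicate number (10.9% of all genes). With dim genes left out 40 of 88 were called (10.2% of all genes above the valley), and with log2(intensity + 16) 33 of 136 (5.68% of all genes). The median genotype difference was 0.16 in the block and 0.13 at the mitochondrial loci, and within sets it was 0.02 in set 2 and 0.28 in set 1 of the block. Signal from the mitochondrial genome and from the nuclear insertion cannot be told apart without probe sequences.

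The 87 plastid loci (codes starting with ATCG) had a median log2 set difference of -0.02 and a median genotype difference of 0.04. Their set differences were above 0 at 39 and below 0 at 48, and the median was -0.05 in 35S::JMJ30-HA and 0.02 in wild-type seedlings. Most plastid loci were bright, and the 7 with a level up to 150 were all higher in set 2, with log2 differences of 0.45 and 1.27 in the 2 up to 50 and from 0.34 to 1.45 in the 5 between 50 and 150. The 80 plastid loci above 150 had a median of -0.04 and ranged from -0.48 to 1.09, so large set differences were not limited to mitochondrial loci. Under the same alternatives as above, 16 of 87 plastid loci were called with the spread that follows intensity (10.9% of all genes). With dim genes left out 5 of 86 were called (10.2% of all genes above the valley), and with log2(intensity + 16) 3 of 87 (5.68% of all genes). In the other nuclear genes the median set difference was 0.0076. The difference between the mitochondrial loci and these groups was not tested, since members of a group are not replicates.

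**Figure D5:**
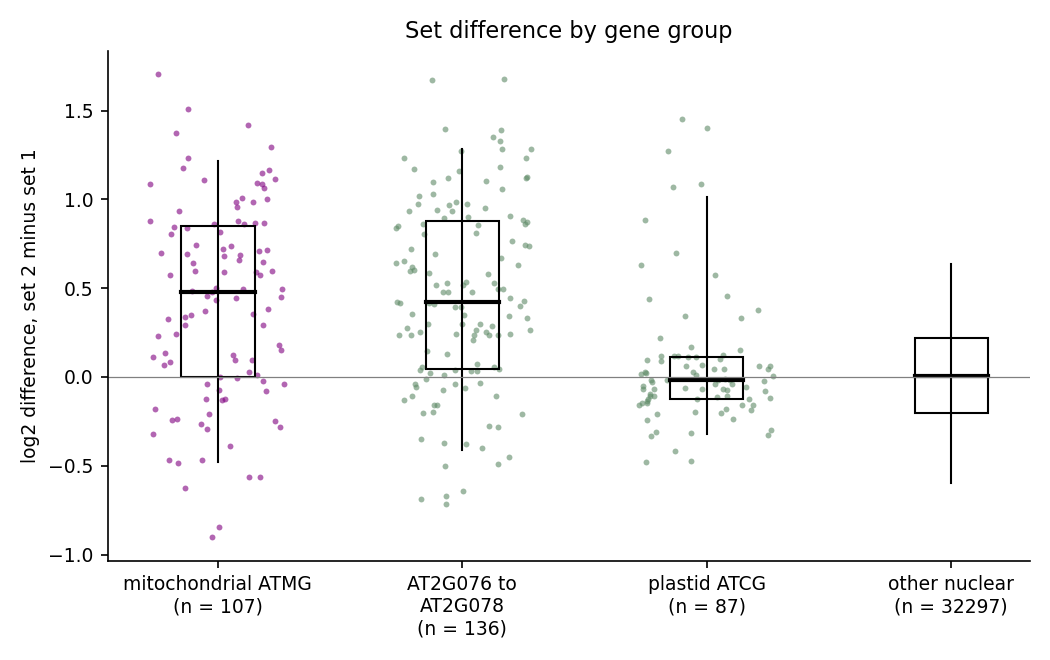
Log2 set difference (set 2 minus set 1) of mitochondrial loci (n = 107), genes with codes from AT2G076 to AT2G078 (n = 136), plastid loci (n = 87) and other nuclear genes (n = 32297), with boxes for the quartiles and whiskers for the 5th and 95th percentiles. The medians were 0.48, 0.42, -0.02 and 0.0076.

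Nuclear genes that act in mitochondria were examined in 3 lists. None of their genes was called in either comparison in the main fit, where no mitochondrial locus was called either. Calls under the alternative spreads are not given for these lists. Of 18 nuclear-encoded subunits of the respiratory chain, 15 were higher in 35S::JMJ30-HA seedlings (49.2% of all genes), with a median log2 difference of 0.07. The genotypes did not overlap at 7 with 35S::JMJ30-HA seedlings higher (12.7% of all genes) and at 1 with them lower (13.3% of all genes). The median set difference of the list was 0.0050 (0.05 in 35S::JMJ30-HA and -0.05 in wild-type seedlings). CAL2, a carbonic anhydrase-like subunit of complex I, had 151 and 161 in 35S::JMJ30-HA seedlings against 138 and 119 in the wild type (0.29 ± 0.19, SE). SDH2-1, an iron-sulfur subunit of complex II, had a genotype difference of -0.51 ± 0.23 but stayed under the valley on every array, between 3.29 and 5.65. The largest set differences of this list were small, 0.26 at CYTC-2, a cytochrome c, and -0.23 at SDH2-2, another iron-sulfur subunit of complex II.

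Of 15 genes for mitochondrial gene expression and genome maintenance, 13 were higher in set 2 (51.2% of all genes). The median log2 set difference of the list was 0.26. Set 2 lay wholly above set 1 at 10 (66.7%, against 25.5% of all genes). It lay wholly below at 1 (6.67%, against 23.2% of all genes), which was MEF1, an RNA editing factor, at -0.27 ± 0.17 (SE). OSB1, a single-stranded DNA-binding protein that limits recombination of mitochondrial DNA, had 48.2 in 35S::JMJ30-HA and 43.5 in wild-type seedlings of set 2 against 29.8 in 35S::JMJ30-HA and 27.8 in wild-type seedlings of set 1 (0.67 ± 0.16, SE, limma, adjusted p = 0.2127). MSH1, a MutS homologue that keeps organelle genomes stable, had 110 and 112 in set 2 against 82.9 and 70.0 in set 1 (0.54 ± 0.18), transgenic line first. At these genes, as at most mitochondrial loci, the sets did not overlap, while the genotype differences were 0.12 at OSB1 and 0.11 at MSH1. WTF9, a splicing factor for mitochondrial introns, differed by 0.72 ± 0.20 between sets. By genotype, the log2 difference was 0.18 at ABO5, a pentatricopeptide repeat protein needed for splicing, and 0.17 at MEF1.

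The list of alternative respiration and mitochondrial stress held 15 genes, with a median log2 set difference of 0.24 and a median genotype difference of 0.04. Neither sign held throughout. The set median was -0.04 in 35S::JMJ30-HA and 0.39 in wild-type seedlings. The genotype median was 0.12 in set 1 and -0.12 in set 2, and ranged from -0.12 to 0.20 with 1 array left out. At an unadjusted p below 0.05 (limma), 3 of the 15 genes were higher in set 2 (8.35% of all genes) and 3 were lower (7.11% of all genes). NDA1, an alternative NAD(P)H dehydrogenase that is known to follow light, had 110 in 35S::JMJ30-HA and 122 in wild-type seedlings of set 2 against 57.2 in 35S::JMJ30-HA and 67.3 in wild-type seedlings of set 1 (0.90 ± 0.17, SE, limma, adjusted p = 0.1596). AOX1A, the stress-induced alternative oxidase that lets electrons bypass complexes III and IV, had 83.0 and 93.6 in set 2 against 43.6 and 62.9 in set 1 (0.75 ± 0.18), transgenic line first. The sets did not overlap at either gene. Other members went the other way, and 2 are given here after their values were seen. BCS1, a mitochondrial AAA ATPase, had 23.4 and 30.5 in set 2 against 45.2 and 44.9 in set 1 (-0.75 ± 0.19), and NDA2, a close relative of NDA1, had 65.0 and 54.7 against 88.3 and 99.7 (-0.65 ± 0.19), the transgenic line first in each. The sets did not overlap at these genes either. AOX1A had a genotype difference of -0.35 ± 0.39. NDB3 and NDB4, external alternative NAD(P)H dehydrogenases, had genotype differences of 0.72 ± 0.28 and -0.48 ± 0.20 and stayed under the valley on all 4 arrays.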

How the data were processed

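Total RNA of 4 seedling samples was hybridised to 1 one-colour array each, per the labels. Each array has 1 deposited intensity per transcript model, linear in scale and already normalized, for which the submitters' processing notes name RMA without a version. All values were above 0, so log2 was taken without a pseudocount, from the deposited intensities. A gene was represented by its model with the highest mean log2 value. Depth has no counterpart here, and the number of arrays limits the precision.

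Genotypes, and replicate numbers with genotype as a term, were compared by lmFit and eBayes of limma 3.58.1 (R 4.3.3, two-sided, Benjamini-Hochberg over 32627 genes, called at an adjusted p below 0.05). The fit was tested on simulated data with added differences. Those data held no deviations shared by a set, so they cannot show how such deviations affect the genotype fit. The labels call the samples of a genotype biological replicates. Plots were drawn with matplotlib 3.10.9.

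The pairing of equal numbers follows the series' design text. Deviations from the genotype means correlated at 0.42 over all genes, at 0.68 over genes above the valley and at 0.57 over the mitochondrial loci. Between arrays, the log2 correlation was 0.989 and 0.990 for equal numbers, 0.983 within 35S::JMJ30-HA and 0.982 within the wild type.

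Named loci were the 6 brightest and, in each comparison, the 5 highest and 5 lowest log2 differences, and in each nuclear list the 2 genes with the largest moderated t, with AOX1A and MSH1 always. Members and lists were chosen with earlier results of these data known. Of 69 nuclear list entries, 10 were not used because the reference table did not give their names. Functional classes of the mitochondrial loci, co-transcribed pairs, sequences and near-identical nuclear copies were not analysed here, since no name or sequence could be tied to the ATMG codes.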

Additional observations from a re-analysis of the deposited data

Results flagged for a closer look

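Values that ran in opposite directions in the 2 sets, or in the 2 genotypes, are given here for the groups and for the loci and genes named by rule. Each rests on 1 array per genotype and set, and no difference between sets or genotypes was tested.

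The log2 genotype difference (35S::JMJ30-HA minus wild type) at ATMG01260 was -0.044 in set 2 and 1.68 in set 1. At ATMG01030 it was -0.059 in set 2 and 1.68 in set 1. At ATMG01410 it was 0.12 in set 2 and -1.11 in set 1. In these 3 cases 1 array of set 1 was low, the first wild-type replicate at ATMG01260 and ATMG01030 and the first 35S::JMJ30-HA replicate at ATMG01410. Bright loci differed less, with 0.22 in set 2 and -0.14 in set 1 at ATMG00020, 0.17 in set 2 and -0.014 in set 1 at ATMG01390, and -0.041 in set 2 and 0.15 in set 1 at ATMG00280. MSH1 had -0.026 in set 2 and 0.24 in set 1, and the median of the alternative respiration list was -0.12 in set 2 and 0.12 in set 1.

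The log2 set difference (set 2 minus set 1) at ATMG00290 was -1.46 in 35S::JMJ30-HA seedlings and 0.33 in the wild type. It was -0.097 in 35S::JMJ30-HA and 0.098 in wild-type seedlings at ATMG00370, and -0.13 in 35S::JMJ30-HA and 0.058 in wild-type seedlings at ATMG00280. Over the mitochondrial loci above 50 the median was -0.21 in 35S::JMJ30-HA and 0.044 in wild-type seedlings, with -0.27 and 0.0012 between 50 and 150 and -0.12 and 0.044 above 150, 35S::JMJ30-HA first. The median was -0.047 in 35S::JMJ30-HA and 0.017 in wild-type seedlings over the plastid loci. It was 0.045 in 35S::JMJ30-HA and -0.049 in wild-type seedlings over the respiratory chain subunits, and -0.042 in 35S::JMJ30-HA and 0.39 in wild-type seedlings over the alternative respiration list. No group had the 4 arrays that a check for single outlying arrays needs.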

How the results depend on the processing

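With 2 arrays per genotype, each value rests on few samples, dim loci lack a detection call, and probe sequences, which would separate nuclear copies, were not used here. The alternative without loci that have near-identical nuclear copies was not run.

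For genotype, no mitochondrial locus was called under any alternative run, the replicate block included (0 called, smallest adjusted p 0.825), and over all genes 1 was called with a trended, robust spread. The median log2 difference of the mitochondrial loci lay between -0.12 and 0.37 when 1 array was left out, where part of the set difference enters it. For replicate number, genes called over the array numbered 0 after quantile normalization, 0 with the mean of models, 1852 with log2(intensity + 16), 1823 above the valley, 3553 with a trended, robust spread and 87 without the genotype term. The mitochondrial loci called numbered 21 with log2(intensity + 16), 26 above the valley and 40 with a trended, robust spread. With array medians made equal, quantile normalization, the mean of models or no genotype term, 0 of them were called. The median set difference of the mitochondrial loci was 0.28 with log2(intensity + 16), which shrinks the differences of dim loci by construction. It was 0.29 to 0.50 when 1 array was left out, with no test possible there. ATMG00370 had a set difference of -0.033 with array medians made equal, against 0.0005.

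Leaving out 1 array turned the sign of some genotype differences, which ranged from -0.19 to 0.27 at ATMG00020, -0.25 to 0.41 at ATMG01390, -0.012 to 0.12 at ATMG00280, -0.0052 to 0.52 at ATMG00030, -1.10 to 0.11 at ATMG01410, -1.09 to 0.17 at ATMG00140, -1.09 to 0.36 at ATMG00850, -0.16 to 1.79 at ATMG01260, -0.13 to 1.75 at ATMG01030, -0.30 to 1.65 at ATMG00240, -0.82 to 0.11 at AOX1A and -0.23 to 0.45 at MSH1. Set differences so affected ranged from -0.13 to 0.058 at ATMG00280, -1.46 to 0.33 at ATMG00290 and -0.10 to 0.10 at ATMG00370. The genotype fit has no set term, so with 1 array left out part of the set difference enters the genotype difference. With all 4 arrays, the genotype difference had the same sign in both sets at ATMG00030, ATMG00140, ATMG00240, ATMG00850 and AOX1A. At ATMG00850 it was -0.33 in set 1 and -0.39 in set 2.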

Other observations

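Some mitochondrial loci carried exactly the same deposited intensity as another entry of the same array. Between intensities of 14 and 150, the share of mitochondrial loci whose value was shared was 26.7% and 29.7% on the 35S::JMJ30-HA arrays and 41.5% and 39.2% on the wild-type arrays. Among other nuclear genes it was 8.45% and 8.97% on the 35S::JMJ30-HA arrays and 9.41% and 9.47% on the wild-type arrays, and among the genes with codes from AT2G076 to AT2G078 it lay between 1.43% and 4.76%.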
